A study of Mus musculus with 6 samples.

Results

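Collagen genes were taken as every probe set annotated with a single gene symbol made of Col, a number, the letter a and a number, such as Col1a1. This gave 82 probe sets for 42 genes, of 45101 probe sets on the array. By structural class, 11 of the genes encode fibrillar chains, 6 encode the type IV chains of basement membranes and 25 encode other collagens. Col6a6, Col21a1 and Col28a1, which complete the list of 45 collagen genes drawn up for these classes, were matched to no probe set and were not analysed here.

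RNA of whole liver was compared between 3 wild-type mice (WT), given as B6, and 3 mice with a LIGHT transgene (LIGHT Tg), for which no strain is named, so that background and transgene cannot be told apart. LIGHT, the product of Tnfsf14, is a ligand of the tumour necrosis factor family. The mice were 4 to 8 weeks old, both groups had eaten a high-fat diet for 2 weeks, and the sources used here do not name the promoter of the transgene. Titles and source names set the groups, although the descriptions call every sample wild-type. No label says outright that each sample is a separate animal, so a p-value here reflects only the spread among these samples, which may be technical. The single probe set of Tnfsf14 had 7.7, 11.9 and 7.43 in WT and 55.7, 19.3 and 26.7 in LIGHT Tg. All LIGHT Tg arrays were higher, but these signals were too low for the filter described below, and in a fit without the filter the adjusted p was 0.423.

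Collagens are trimeric proteins of the extracellular matrix, built from chains with repeated Gly-X-Y triplets. Fibrillar collagens form the tensile fibres of connective tissue, and in liver the type I and III fibres lie around portal tracts and central veins and accumulate in fibrosis, where activated stellate cells are a main source. Type IV collagen forms a sheet-like network with laminin, nidogen and perlecan under endothelium and epithelium. The sinusoids of normal liver have little organised basement membrane, while vessels and bile ducts have a complete one.

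MAS5 signals, which are on a linear scale, came without detection calls, so a low signal could not be called absent. Probe sets were tested where their mean log2 signal over the 6 arrays reached 7.387, a signal of 167.4. Of the collagens, 33 probe sets for 24 genes passed this filter, and 49 probe sets did not. Every difference is the mean log2 signal of LIGHT Tg less that of WT, and stands beside its moderated standard error (SE) and a Benjamini-Hochberg adjusted p from limma over all 22519 probe sets tested, n = 3 per group.

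The arrays fell into sets by the number in their titles. WT 1 and LIGHT Tg 1 are titled 78 and 77, and the other 4 arrays have titles from 30 to 35. The sets differed in Xist, the RNA that coats and silences an X chromosome, with 444.0 and 406.6 on the pair against 7993 to 9714 on the others. Each set holds both genotypes, so the comparison was also fitted with the set as a block. Among the 10 hepatocyte marker genes measured, summed signals were 159400 to 172000 in WT and 150600 to 169400 in LIGHT Tg. None passed 5% FDR at its brightest probe set, with or without the block. Of their differences 8 were negative, against 5935 of 11563 over all genes tested. The largest was that of Ass1, at -1.01 ± 0.564 (adjusted p = 0.618, and 0.0507 with the block). A dimmer probe set of Pck1 fell with the block (-0.45, adjusted p = 0.0351), as did 3.21% of all tested probe sets.

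Of the 33 tested collagen probe sets, 1 passed 5% FDR, a probe set of Col4a1 that rose in LIGHT Tg. Over the whole array 1.17% of tested probe sets passed, and 0.715% passed as higher. With the block, 6 collagen probe sets passed. Probe sets of Col4a1, Col4a2 and Col23a1 rose, and both tested probe sets of Col27a1 and 1 of Col18a1 fell. The share over the whole array was then 6.47%, with 3.26% higher and 3.21% lower. Without overlap between the groups, 5 of the 33 lay wholly higher in LIGHT Tg and 3 wholly lower, against 8.17% and 9.19% of all tested probe sets. Of the 33 differences, 20 were positive and 13 negative.

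For the classes, each gene was represented by its brightest probe set. The 2 type IV genes tested had differences of 0.76 and 0.78. The 8 fibrillar genes had a median of -0.03, with 4 positive and 4 negative, and the 14 other collagens had a median of 0.07, with 9 positive and 5 negative. Over all 11563 genes tested the median was -0.01. For type IV, fibrillar and other collagens the medians were 0.48, 0.03 and 0.11 within the pair. The arrays titled 30 to 35 gave 0.91, -0.14 and 0.03. The fibrillar median was 0.26 without WT 1. The 27 tested collagen probe sets that did not pass with the block had adjusted p between 0.131 and 0.995 there. By its brightest probe set no collagen gene passed without the block, since the probe set of Col4a1 that passed is not its brightest. With the block 2 of the 24 genes rose (Col4a2 and Col23a1) and 1 fell (Col27a1), against 7.15% of all genes.

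**Figure D1:**
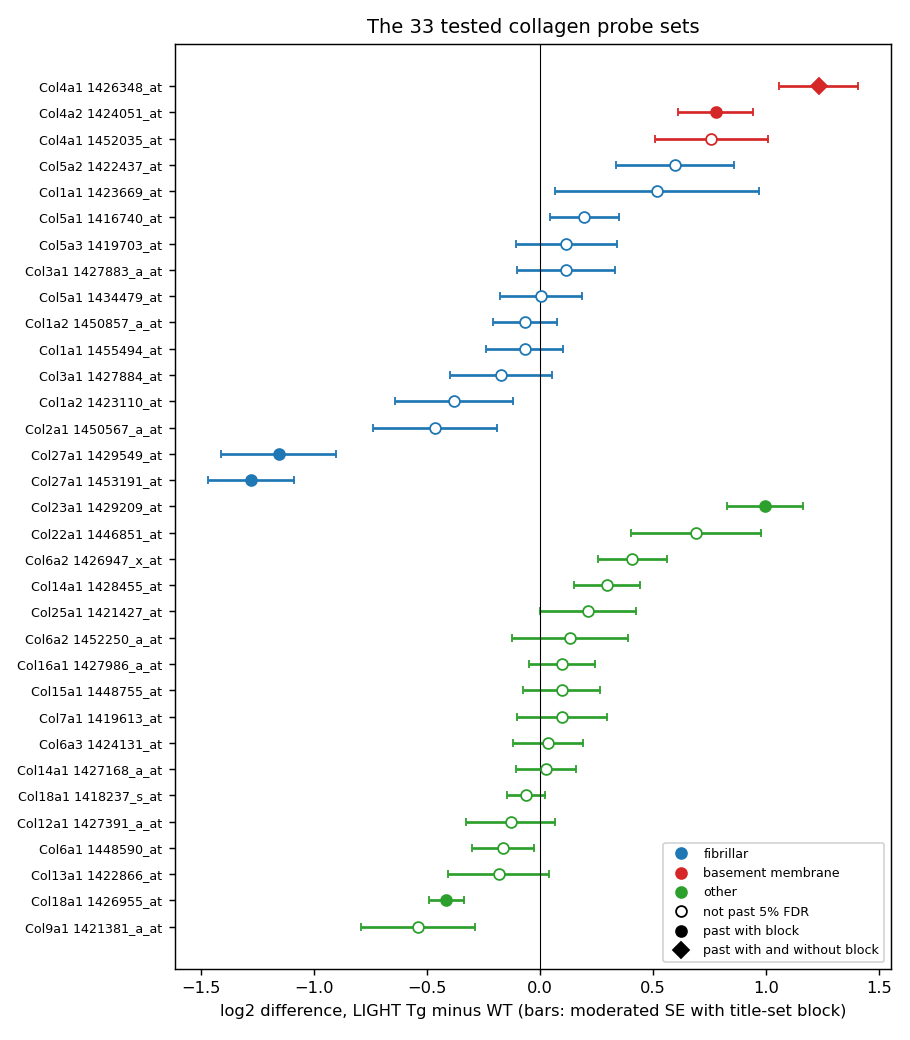
Log2 difference, LIGHT Tg minus WT, for each of the 33 tested collagen probe sets, with bars for the moderated SE of the fit with the title-set block and colours for the class. Filled symbols passed 5% FDR with the block and the diamond also without it; the 3 type IV probe sets all lie at or above 0.76, and the 2 of Col27a1 lie at -1.16 and -1.28.

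Col4a1 encodes the more abundant chain of the common type IV trimer, which joins 2 chains of it with 1 of Col4a2. At its probe set 1426348_at the signals were 797.0, 579.7 and 879.8 in WT 1 to 3 and 1754, 1637 and 1836 in LIGHT Tg 1 to 3. Every LIGHT Tg array was higher than every WT array, and the LIGHT Tg values lay closer together. Col4a1 rose there by 1.23 ± 0.198 (SE, 2.35-fold, adjusted p = 0.0393), and with the block the adjusted p was 0.009999. Within the pair the difference was 1.14, and the arrays titled 30 to 35 gave 1.28. Without the block the call was lost whichever 1 array was left out (adjusted p = 0.053 to 0.206), and with the block it held whichever of the 4 arrays titled 30 to 35 was left out (0.0194 to 0.0436).

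The brighter probe set of Col4a1, 1452035_at, had signals of 1952, 960.7 and 1307 in WT and 2769, 1504 and 2837 in LIGHT Tg. Here the groups overlapped, because LIGHT Tg 2 lay below WT 1. The difference was 0.76 ± 0.338 (adjusted p = 0.484, and 0.131 with the block). Both probe sets are annotated from the same transcript accession, and the sources used here do not say which part of the transcript each reads.

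Col4a2 had signals of 1215, 598.1 and 797.2 in WT and 1667, 1265 and 1379 in LIGHT Tg at its only probe set. The groups did not overlap, although WT 1 and LIGHT Tg 2 were close. The difference was 0.78 ± 0.276 (adjusted p = 0.341). With the block Col4a2 rose (SE 0.167, adjusted p = 0.0399), by 0.46 in the pair and 0.94 in the other arrays. That call was lost without any of the 4 arrays titled 30 to 35 (0.0906 to 0.139).

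**Figure D2:**
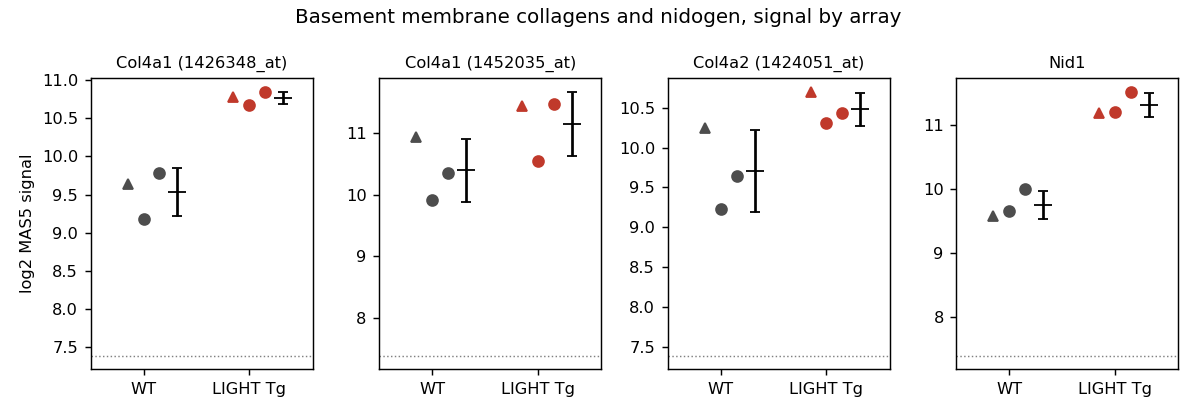
Log2 MAS5 signal on each array for both probe sets of Col4a1, for Col4a2 and for Nid1, with triangles for the arrays titled 77 and 78, circles for those titled 30 to 35, the mean ± SD beside them (n = 3 per group) and a dotted line at the filter level of 7.387. The LIGHT Tg arrays are above all WT arrays in 3 of the 4 panels, and in the second panel LIGHT Tg 2 lies below WT 1.

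Col4a1 and Col4a2 lie head to head on opposite strands. Their RefSeq start sites in GRCm38.p6 are on chromosome 8, at 11312826 on the minus strand and at 11312805 on the plus strand, so that the first bases of both genes overlap. The stretch from one start to the other, chr8:11312805-11312826, is 22 bases long. It is printed because these are the 2 type IV genes past the filter. Capitals mark the GC box GGGCGG, or its reverse complement CCGCCC.
Col4a2, plus strand: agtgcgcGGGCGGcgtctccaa
Col4a1, minus strand: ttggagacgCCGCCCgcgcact
In the windows from 250 bases before to 50 after a start, on both strands, GGGCGG was found 1 time for Col4a1 and 3 times for Col4a2, and CCAAT 1 time for each. These 2 windows share 78 bases, so they are not independent. TATAAA was not in these windows. Of all 32851 windows in the table, 35.7% hold GGGCGG, 37.4% CCAAT and 13.6% TATAAA. The GC content was 74.0% for Col4a1 and 73.7% for Col4a2, against a median of 52.7% over all windows. A match is a description of the letters only.

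The table held windows for 33 of the 42 measured collagen genes. Col4a5 and Col4a6 also lie head to head, on chromosome X, where their starts span 1344 bases. Their differences at the brightest probe sets, both below the filter, were -0.36 and 0.28. Whether a shared start region bears on any difference was not tested. Col27a1 had 2 GC boxes and a GC content of 61.7%, and Col23a1 had 1 and 67.7%. Col3a1, whose signal is described below, had TATAAA 1 time, no GC box and a GC content of 37.7%.

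The other type IV chains form the trimers of specialised basement membranes such as those of the kidney, and none reached the filter. Col4a3 had 322.6, 101.4 and 223.1 in WT and 83.6, 23.2 and 123.9 in LIGHT Tg at its brighter probe set. The groups overlapped. The difference was -1.64, and in the fit over all 45037 non-control probe sets its adjusted p was 0.644. Col4a4 had signals between 5.2 and 29.9 over its 3 probe sets. Its brightest lay wholly lower in LIGHT Tg, with a difference of -0.56 (adjusted p = 0.918 in that fit), and the others had 0.42 and 0.02. Col4a5 had 211.3, 181.3 and 168.7 in WT and 114.5, 164.8 and 162.6 in LIGHT Tg at its brighter probe set, a difference of -0.36 without overlap (adjusted p = 0.915). Col4a6 signals lay between 72.5 and 186.0. With these 4 genes included at their brightest probe sets, 3 of 6 type IV genes had positive differences and the class median was -0.039.

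Of the proteins that join type IV collagen in basement membranes, 12 of 19 measured genes were tested. One rose, 11 did not pass, and the median was 0.06. Nid1, which encodes the nidogen that links laminin to type IV collagen, had 762.0, 808.1 and 1023 in WT and 2333, 2361 and 2933 in LIGHT Tg. All LIGHT Tg arrays were well above the highest WT array. It rose by 1.56 ± 0.183 (adjusted p = 0.0145, and 0.00239 with the block), by 1.61 in the pair and 1.53 in the others. No other gene of this list passed with the block. Of all genes tested, 0.839% passed as higher without the block and 3.63% with it.

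Endothelial marker genes had mostly positive differences, although few passed. Endothelial cells are a known source of type IV collagen. All 18 markers were tested, 2 rose, 16 did not pass and 15 of the differences were positive (median 0.18). Over all genes tested 5628 of 11563 differences were positive (median -0.01). Their summed signal was 18310 to 20050 in WT and 22810 to 27240 in LIGHT Tg, without overlap, and none was at 0. Vwf, von Willebrand factor, rose by 2.39 ± 0.229 (adjusted p = 0.00678, and 0.000929 with the block), and Lyve1, a hyaluronan receptor of sinusoids and lymphatics, by 1.24 ± 0.20 (adjusted p = 0.0393, and 0.00785 with the block). With the block 4 rose, Stab2 and Fcgr2b being the others, against 3.63% of all genes. Leaving these 4 genes out, the summed signals of the 2 groups overlapped. Pecam1 and Cdh5 had 0.19 and 0.12 and did not pass. The 3 negative differences were those of Tek (-0.03), Kdr (-0.09) and Eng (-0.11). The part of these markers in the collagen differences was not tested, and in whole liver more cells of a type and more RNA per cell cannot be told apart.

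Fibrillar collagens were led by Col27a1, the only gene of its class that passed in any form of the fit. Col27a1 encodes a chain found mainly in cartilage. Its brighter probe set, 1453191_at, had 1462, 724.8 and 995.4 in WT and 497.4, 441.6 and 335.3 in LIGHT Tg. Every LIGHT Tg array was below every WT array. The difference was -1.28 ± 0.293 (2.43-fold lower, adjusted p = 0.117), and with the block Col27a1 fell (SE 0.191, adjusted p = 0.0116). It was -1.56 in the pair and -1.14 in the others. The other probe set, 1429549_at, had 706.4, 329.5 and 395.7 in WT and 198.4, 236.7 and 177.2 in LIGHT Tg. It had -1.16 ± 0.319 (adjusted p = 0.196, and 0.0428 with the block). With the block and without WT 3 the brighter probe set had an adjusted p of 0.0577 and was called without any other array titled 30 to 35, while 1429549_at was called without LIGHT Tg 2 (0.0342) and lost without WT 2 (0.0876), WT 3 (0.126) or LIGHT Tg 3 (0.127).

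The main fibre-forming chains of liver did not pass. Col1a1, the alpha 1 chain of type I collagen, had 435.8, 185.3 and 180.0 in WT and 457.3, 170.2 and 162.2 in LIGHT Tg. Within each group the array of the pair was far above the other 2. The difference was -0.07 ± 0.518 (adjusted p = 0.992), and -0.07 ± 0.171 with the block (adjusted p = 0.855). Its other tested probe set had 339.0, 58.6 and 174.8 in WT and 379.1, 117.9 and 227.7 in LIGHT Tg, a difference of 0.52 ± 0.696 (adjusted p = 0.906).

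Col1a2, the alpha 2 chain of type I collagen, had 1283, 1142 and 1449 in WT and 1357, 1096 and 1239 in LIGHT Tg. The ranges overlapped almost fully. The difference was -0.07 ± 0.170 (adjusted p = 0.965, and 0.824 with the block), and -0.38 ± 0.402 at the next probe set. Col3a1, which forms type III collagen, had 2698, 1498 and 2478 in WT and 2697, 1817 and 2598 in LIGHT Tg. Its difference was 0.12 ± 0.269 (adjusted p = 0.962, and 0.802 with the block), and -0.17 ± 0.257 at the dimmer probe set. The lowest Col3a1 signals were on WT 2 and LIGHT Tg 2, and the ranges overlapped.

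Type V collagen is built into type I fibres and regulates their diameter. Col5a1 had 339.5, 432.3 and 468.0 in WT and 449.0, 355.0 and 433.9 in LIGHT Tg, a difference of 0.003 ± 0.210. Col5a2 had 213.1, 144.3 and 250.7 in WT and 274.7, 268.8 and 360.5 in LIGHT Tg. The groups did not overlap, but the difference of 0.60 ± 0.285 did not pass (adjusted p = 0.528, and 0.233 with the block). Col5a3 had 913.1, 614.6 and 596.0 in WT and 614.1, 755.0 and 919.4 in LIGHT Tg, and LIGHT Tg was lower in the pair (-0.57) but higher among the others (0.46). The cartilage chain gene Col2a1 had 539.6, 116.9 and 134.6 in WT and 254.2, 98.4 and 128.9 in LIGHT Tg, a difference of -0.47 ± 0.648 (adjusted p = 0.912, and 0.372 with the block). Col11a1, Col11a2 and Col24a1 did not reach the filter, with signals of at most 198.9, 153.4 and 43.1.

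**Figure D3:**
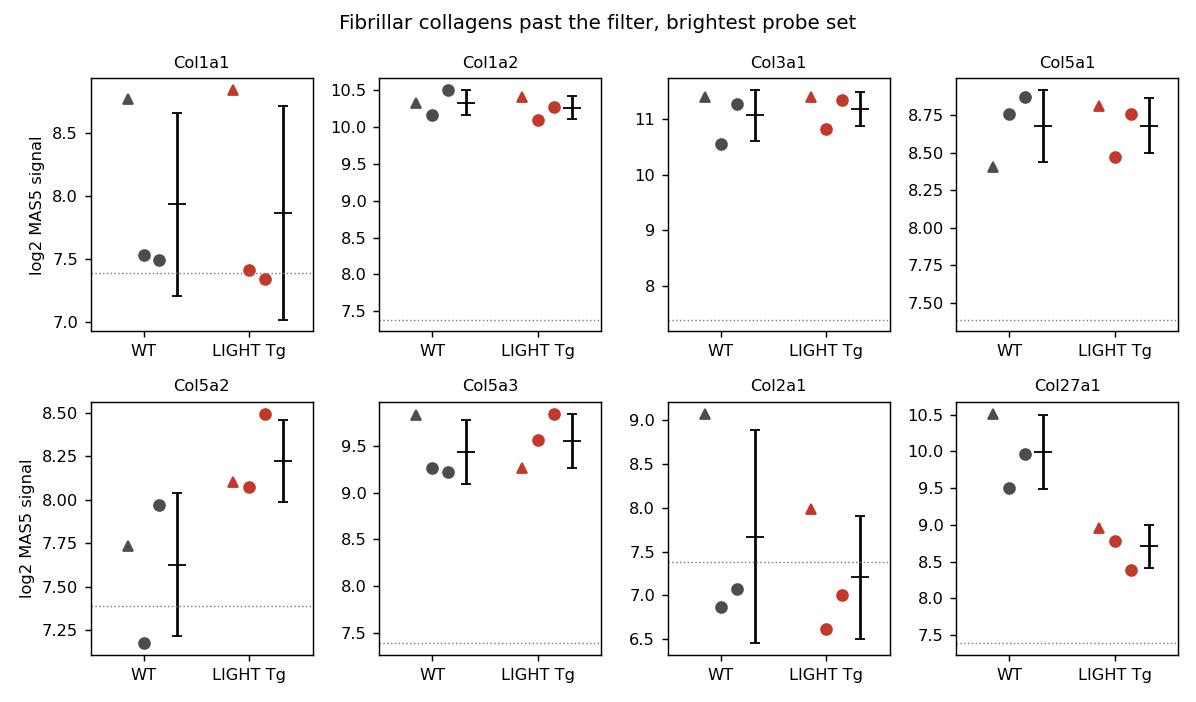
Log2 MAS5 signal on each array for the 8 fibrillar collagen genes past the filter, at the brightest probe set, with triangles for the arrays titled 77 and 78, circles for those titled 30 to 35, the mean ± SD beside them (n = 3 per group) and a dotted line at 7.387. Col27a1 is lower on every LIGHT Tg array, Col5a2 is higher on every LIGHT Tg array, and the pair stands above the other arrays for Col1a1 and Col2a1 in both groups.

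Among the other collagens, the transmembrane collagen gene Col23a1 rose with the block. At 1429209_at it had 256.7, 183.5 and 184.0 in WT and 494.5, 330.9 and 419.3 in LIGHT Tg. All LIGHT Tg arrays were higher. The difference was 0.99 ± 0.253 (1.99-fold, adjusted p = 0.157), with an adjusted p of 0.0172 with the block, 0.95 in the pair and 1.02 in the others. Of the 4 arrays titled 30 to 35, leaving out LIGHT Tg 2 kept the call (0.0348), and leaving out WT 2 (0.0778), WT 3 (0.0685) or LIGHT Tg 3 (0.0774) lost it. A dimmer probe set, 1440911_at, had 20.7, 34.2 and 34.7 in WT and 166.3, 157.8 and 157.3 in LIGHT Tg. It did not reach the filter. In the fit over all non-control probe sets it had 2.46 ± 0.422, with an adjusted p of 0.0714, and of 0.0214 with the block. A further one had signals of at most 13.6. In that fit with the block 4 of the 82 collagen probe sets passed, against 2.42% of all (1.31% higher and 1.11% lower), and they were both of these, 1426348_at of Col4a1 and 1453191_at of Col27a1. Without the block none passed in limma, against 0.457% of all, and 12 of 82 (14.6%) had an unadjusted p below 0.05, against 7.92% of all.

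The other transmembrane collagens did not pass. Col13a1 had 204.6, 232.3 and 306.3 in WT and 146.5, 301.5 and 225.0 in LIGHT Tg, and Col25a1 had 296.2, 166.1 and 206.8 in WT and 367.7, 245.8 and 175.0 in LIGHT Tg. Their differences were -0.18 ± 0.330 and 0.21 ± 0.356. Col17a1, of hemidesmosomes, had signals of at most 25.8.

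The multiplexins Col15a1 and Col18a1 carry glycosaminoglycan chains and lie at basement membranes, and hepatocytes are a known source of type XVIII collagen. Col18a1 had 8351, 8094 and 8857 in WT and 6071, 6663 and 6254 in LIGHT Tg at 1426955_at. The groups did not overlap. The difference was -0.41 ± 0.105 (1.33-fold lower, adjusted p = 0.157), and with the block Col18a1 fell there (adjusted p = 0.026), a call lost without any of the 4 arrays titled 30 to 35 (0.0525 to 0.107). The brighter probe set, 1418237_s_at, had 10198, 8971 and 9133 in WT and 8499, 9513 and 9058 in LIGHT Tg. These ranges overlapped, and the difference was -0.06 ± 0.107 (adjusted p = 0.933), so the value of -0.41 holds for 1 of 2 probe sets. Col18a1 has 2 start sites in the RefSeq table, and the sources used here do not say which transcripts each probe set reads. Col15a1 had 453.7, 346.0 and 414.2 in WT and 578.9, 332.5 and 412.1 in LIGHT Tg, a difference of 0.10 ± 0.254.

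Type VI collagen forms beaded filaments near cell surfaces. Col6a1 had 1155, 652.0 and 689.7 in WT and 1123, 629.7 and 522.0 in LIGHT Tg, and Col6a3 had 810.8, 614.8 and 762.1 in WT and 774.9, 648.6 and 813.7 in LIGHT Tg. Col6a2 had 1288, 716.5 and 644.3 in WT and 1411, 890.2 and 1105 in LIGHT Tg, a difference of 0.41 ± 0.307 (adjusted p = 0.755, and 0.173 with the block). The differences of Col6a1 and Col6a3 were -0.16 ± 0.348 and 0.04 ± 0.189. Col6a4 and Col6a5 did not reach the filter, with signals of at most 336.3 and 166.5.

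The fibril-associated collagens (FACIT) sit on the surface of fibres. Col14a1 had 1463, 2490 and 3223 in WT and 1639, 2634 and 2871 in LIGHT Tg. Its arrays in the pair were the lowest of each group, and the genotypes differed by 0.03 ± 0.335. Its next probe set had 433.1, 634.6 and 630.0 in WT and 650.3, 746.8 and 660.1 in LIGHT Tg, without overlap (0.30 ± 0.210, adjusted p = 0.731). Col12a1 had 242.1, 372.7 and 270.2 in WT and 258.3, 249.0 and 289.0 in LIGHT Tg. Col16a1 had 575.4, 381.0 and 433.6 in WT and 589.6, 488.2 and 404.7 in LIGHT Tg. Their differences were -0.13 ± 0.239 and 0.10 ± 0.237. A dimmer probe set of Col12a1 below the filter, 1440101_at, had 104.3, 110.3 and 67.0 in WT and 36.6, 50.1 and 40.4 in LIGHT Tg. All LIGHT Tg arrays were lower, and the difference of -1.13 had an adjusted p of 0.559 without the filter, and of 0.234 with the block. Col9a1, a cartilage FACIT chain, had 334.6, 188.5 and 169.1 in WT and 243.6, 93.1 and 152.8 in LIGHT Tg, a difference of -0.54 ± 0.439. Col9a2, Col9a3, Col19a1 and Col20a1 did not reach the filter, with signals of at most 11.8, 58.2, 199.3 and 420.1. Of these, 1 of 4 probe sets of Col20a1 lay wholly lower in LIGHT Tg, with 199.4, 143.6 and 140.8 in WT and 126.3, 45.6 and 75.3 in LIGHT Tg. Its difference was -1.07 (adjusted p = 0.632 without the filter, and 0.179 with the block).

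Col22a1, a FACIT chain of tissue junctions, had 180.3, 157.0 and 83.3 in WT and 271.5, 180.3 and 202.6 in LIGHT Tg at 1446851_at, where LIGHT Tg 2 lay just below WT 1 and the groups overlapped. The difference was 0.69 ± 0.373 (adjusted p = 0.600, and 0.212 with the block). Its 2 other probe sets did not reach the filter and did not overlap between groups. One, 1429280_at, had 7.0, 111.2 and 94.1 in WT and 271.1, 282.7 and 366.0 in LIGHT Tg, and the other had 39.1, 22.1 and 6.0 in WT and 244.9, 60.2 and 61.4 in LIGHT Tg. In the fit over all non-control probe sets their adjusted p values were 0.472 and 0.480, and with the block 0.107 and 0.0854.

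Col8a1, a short-chain collagen of vessel walls, did not reach the filter either. At 1418440_at it had 148.4, 101.6 and 67.2 in WT and 316.5, 214.9 and 260.0 in LIGHT Tg, a difference of 1.38 (adjusted p = 0.282 without the filter, and 0.0564 with the block). At 1455627_at it had 5.93, 79.1 and 78.3 in WT and 142.3, 178.1 and 300.6 in LIGHT Tg (adjusted p = 0.563, and 0.112 with the block). Both probe sets were wholly higher in LIGHT Tg, and its dimmest, with at most 35.8, overlapped. Of the 49 untested collagen probe sets 5 lay wholly higher in LIGHT Tg and 4 wholly lower. Over all non-control probe sets, tested and untested together, 6.70% lay wholly higher and 7.02% wholly lower. The tested ones alone had 8.17% and 9.19%, so the shares of the untested ones alone were below 6.70% and 7.02%.

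Col7a1, which forms anchoring fibrils, was grouped with Col8a1 and was the only gene of that group past the filter. It had 186.0, 224.9 and 251.3 in WT and 221.7, 208.8 and 276.8 in LIGHT Tg (0.10 ± 0.245). Col8a2, Col10a1 and Col26a1 had signals of at most 106.0, 25.7 and 58.7.

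**Figure D4:**
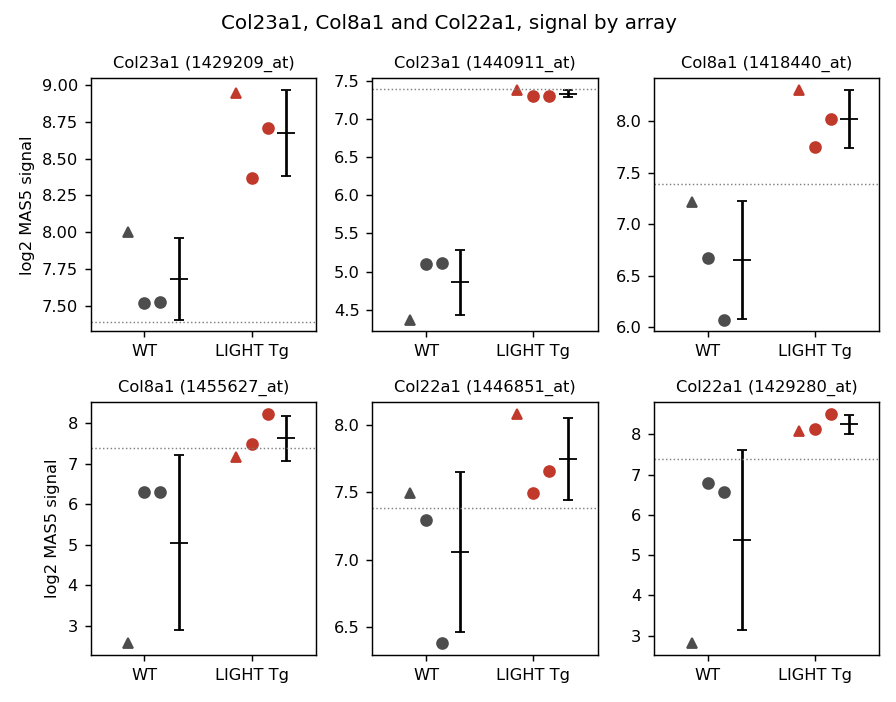
Log2 MAS5 signal on each array for 2 probe sets each of Col23a1, Col8a1 and Col22a1, with triangles for the arrays titled 77 and 78, circles for those titled 30 to 35, the mean ± SD beside them (n = 3 per group) and a dotted line at the filter level of 7.387. The LIGHT Tg arrays lie above the WT arrays in all panels but that of Col22a1 1446851_at, where LIGHT Tg 2 lies just below WT 1, and WT 1 stands far below the other WT arrays for 1455627_at and 1429280_at.

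Several collagens differed between the title sets. In the fit with both terms 9 of the 33 tested probe sets did so at 5% FDR, against 27.4% of all, and 8 of the 24 genes, against 25% of all genes tested. Col1a1 was higher in the pair by 1.36 (adjusted p = 0.00383), Col2a1 by 1.64 (0.00909), Col6a1 by 0.88 (0.00695), Col6a2 by 0.72 (0.0194), Col9a1 by 0.97 (0.0351), Col25a1 by 0.75 (0.045) and Col4a2 by 0.58 (0.0494). Col14a1 was lower in the pair by 0.85 (0.00702). In the arrays titled 30 to 35 alone 2 collagen probe sets passed, of Col4a1 (adjusted p = 0.0346) and Col4a2 (0.0497), both higher. The share over the whole array was 4.25%, with 2.22% higher and 2.02% lower. The sets differ in Xist and in whatever else their numbers stand for, which cannot be told apart. The difference between genotypes did not pass a test of interaction with the set for any tested collagen probe set (smallest adjusted p = 0.287, with 0.0666% of all probe sets passing), in a fit where the pair has 1 array per genotype.

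**Figure D5:**
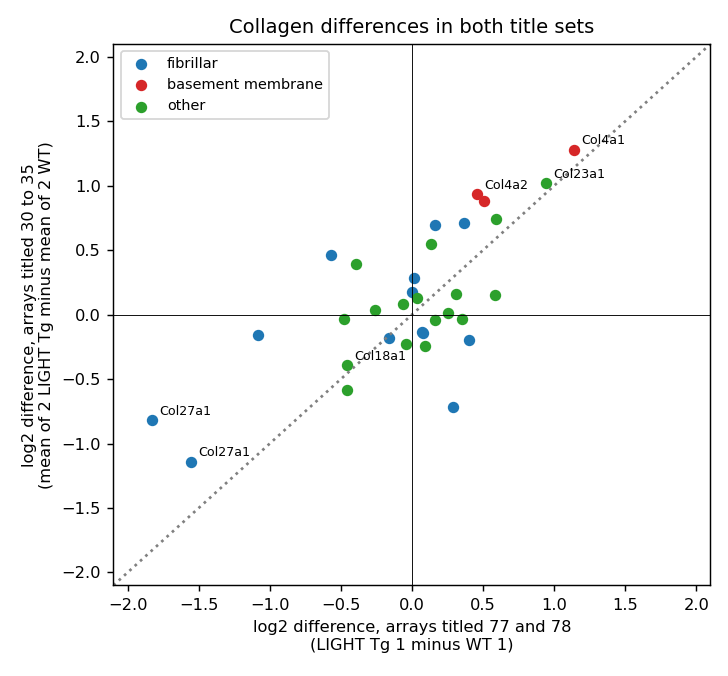
Log2 difference for each of the 33 tested collagen probe sets in the arrays titled 77 and 78 (LIGHT Tg 1 minus WT 1, horizontal) and in those titled 30 to 35 (mean of 2 LIGHT Tg minus mean of 2 WT, vertical), coloured by class, with names at those past 5% FDR with the block and a dotted line of equality. The 6 named probe sets have the same sign in both sets, and most of the others lie within 0.75 of 0 on both axes.

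Enzymes that make and finish collagen were described from lists that were chosen with earlier results of these data known. Of 19 measured genes of collagen synthesis, which cover hydroxylation, folding and export, 16 were tested and none passed, with or without the block (median -0.02). Plod2, a lysyl hydroxylase, had the largest statistic, with 337.9, 284.7 and 275.7 in WT and 146.0, 227.9 and 215.3 in LIGHT Tg (-0.63 ± 0.260, adjusted p = 0.438, and 0.159 with the block). Colgalt2, a galactosyltransferase of collagen hydroxylysine, lay just below the filter with a mean log2 signal of 7.31. It had 20.1, 62.6 and 27.6 in WT and 553.9, 1134 and 735.5 in LIGHT Tg, far higher on every LIGHT Tg array. In the fit without the filter Colgalt2 rose by 4.57 ± 0.498 (adjusted p = 0.0157, and 0.00349 with the block). Of all probe sets 0.302% passed as higher in that fit, and 1.31% with the block. Of 10 measured genes of processing and cross-linking 7 were tested and none passed without the block (median 0.10). Loxl4, a lysyl oxidase family member, had 240.3, 125.9 and 148.2 in WT and 435.9, 319.1 and 715.3 in LIGHT Tg. Its difference was 1.49 ± 0.377 (adjusted p = 0.155), and it rose with the block (0.0486), where 3.63% of all genes passed as higher.

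Of 17 measured genes of collagen breakdown 10 were tested and none passed without the block (median 0.11). Pepd, the dipeptidase that frees proline from collagen fragments, had 2505, 1884 and 2096 in WT and 5211, 4720 and 3665 in LIGHT Tg. Its difference was 1.06 ± 0.185 (adjusted p = 0.0509), and it rose with the block (0.00471), where 3.63% of all genes passed as higher. None of 6 tested collagen receptor genes passed at its brightest probe set, with or without the block (median 0.02). Ddr1, a collagen-binding receptor kinase, had the largest statistic, at 0.09 ± 0.184 (adjusted p = 0.951), but its probe sets disagreed. At a dimmer one it had 166.8, 198.6 and 179.7 in WT and 706.4, 371.8 and 426.6 in LIGHT Tg. All LIGHT Tg arrays were higher there, and the difference of 1.41 ± 0.284 (adjusted p = 0.0806) passed with the block (0.0171). Below the filter, another probe set of Ddr1 had 20.3, 31.7 and 55.8 in WT and 767.2, 323.9 and 564.9 in LIGHT Tg. It rose by 3.98 in the fit without the filter (adjusted p = 0.0268, and 0.0126 with the block), and a further one, with at most 138.5, had 2.78 (0.101, and 0.0375 with the block).

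Of 12 tested genes of TGF-beta and PDGF signalling, which drive collagen synthesis in fibrosis, 1 rose and 11 did not pass (median -0.15). Over all genes tested 0.839% passed as higher. With the block 2 of the 12 rose and 1 fell, against 3.63% and 3.52% of all genes. Pdgfa, the growth factor chain that acts on mesenchymal cells, had 437.7, 235.5 and 232.0 in WT and 1026, 1252 and 1019 in LIGHT Tg. It rose by 1.93 ± 0.282 (adjusted p = 0.0303, and 0.00543 with the block). Tgfbr2, a TGF-beta receptor, had 0.80 ± 0.217 (adjusted p = 0.187) and rose with the block (0.0287). Ccn2, a matricellular target of TGF-beta, had 514.9, 726.2 and 861.0 in WT and 303.8, 264.6 and 473.7 in LIGHT Tg. Its difference was -1.03 ± 0.295 (adjusted p = 0.215), and it fell with the block (0.0498).

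Of 16 tested genes of other fibre-associated matrix proteins none passed without the block (median -0.002). Tnxb, a tenascin that binds collagen fibres, had 481.5, 285.3 and 402.8 in WT and 158.3, 198.9 and 180.9 in LIGHT Tg. Its difference was -1.09 ± 0.264 (adjusted p = 0.136), and it fell with the block (0.0403). With the block 3.52% of all genes passed as lower. Markers of the mesenchymal sources of fibrillar collagen were examined beside it. None of 15 tested stellate cell markers and none of 6 tested portal fibroblast markers was called at a tested probe set, with or without the block. Pdgfra, a receptor of stellate and other mesenchymal cells, had a probe set below the filter with 52.7, 23.0 and 23.4 in WT and 176.8, 123.1 and 122.1 in LIGHT Tg. Its difference of 2.18 had an adjusted p of 0.170 without the filter and passed with the block (0.0296). At its brighter, tested probe set Pdgfra had -0.09 ± 0.483 (adjusted p = 0.988, and 0.915 with the block). Of the 15 tested stellate markers 5 had positive and 10 had negative differences (median -0.06). Lrat had the largest statistic among them, at -1.25 ± 0.436 (adjusted p = 0.328, and 0.0619 with the block). The summed stellate markers, 18 genes, were 15380 to 19100 in WT and 16390 to 18090 in LIGHT Tg, and the 12 portal fibroblast markers were 3444 to 4135 and 2968 to 5813. Summed macrophage markers overlapped too, with 31350 to 37420 and 22580 to 36140. Bile duct markers overlapped as well, with 3276 to 8392 and 5317 to 8937. In the pair WT had 8392 and LIGHT Tg 8937, and in the others WT had 3276 and 3407 and LIGHT Tg 5317 and 5848. These sums hold Epcam, with 5846 and 3598 on WT 1 and LIGHT Tg 1 and 219.3 to 755.7 elsewhere. They also hold Prom1, with 60.9, 235.9 and 166.8 in WT and 2766, 1890 and 2844 in LIGHT Tg. Leaving Prom1 out, the sum was lower in LIGHT Tg in the pair, and the groups overlapped in the others. Of the 4 bile duct markers tested 3 did not pass, with differences of -0.55 for Epcam, 0.10 for Cldn4 and 0.05 for Aqp1. Below the filter Krt7 had -1.05, Krt19 0.07, Cldn7 0.10, Sox9 0.18, Cftr 0.30 and Sctr 0.59. Prom1, a marker of progenitor and duct cells, rose by 4.20 ± 0.483 (adjusted p = 0.0133, and 0.00268 with the block). Over all genes 0.839% passed as higher, and 3.63% with the block. The part of these markers in the collagen values was not tested.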

How the data were processed

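The deposited values are the authors' MAS5 signal intensities, 1 per probe set, per the submitters' processing notes; the notes used here give no version or scaling target. Sums of signal were 30980000 to 32710000 per array, and the number of arrays limits the precision. After leaving out 64 control probe sets, log2 was taken with a floor of 1, which 106 values lay under. The filter was the median of the mean log2 signal over 45037 probe sets. Genes were named from the array's annotation table, using probe sets with 1 symbol (34945); 0 collagen symbols changed against RefSeq GRCm38.p6, which also gave the promoter windows.

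LIGHT Tg and WT were compared with limma 3.58.1 (R 4.3.3), lmFit and eBayes with trend, two-sided; 3 against 3 arrays allow no exact permutation p below 0.1. Replicate numbers follow listing order and pair no samples. Alternatives were no filter or a stricter one, an offset, other normalization, eBayes settings, array weights, the title-set block, the arrays titled 30 to 35 alone and each array left out; leaving out arrays in the blocked fit was added after seeing the data. The members, classes and lists were chosen with earlier results of these data known. Every collagen gene past the filter was named, and from each pathway list the members past 5% FDR with or without the block, at most 4, or else the 1 with the largest statistic; marker genes, and list members that passed only at a dimmer probe set or below the filter, were named outside this rule, after their values were seen. The fits with and without the block were tested on simulated data. Of simulated log2 changes of 1, 3.65% were recovered without the block and 35.4% with it. Of changes of 2, 44.7% and 78.5% were recovered. A collagen that did not pass is therefore not shown to be unchanged. Figures were drawn with matplotlib 3.10.9.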

Additional observations from a re-analysis of the deposited data

How the results depend on the processing

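The collagen call without the block, 1 probe set of Col4a1, rested on its settings. It was 0 with no filter (12 of 82 with an unadjusted p below 0.05, or 14.6% against 7.92% of all probe sets) and 0 with eBayes without the trend (6 of 33, or 18.2% against 10.6%), and 0 in limma whichever 1 array was left out, where 5 to 8 had an unadjusted p below 0.05 (15.2% to 24.2%, against 7.41% to 12.6% of all). The count was 6 with array weights, 6 with the title-set block and 2 in the arrays titled 30 to 35 alone. With the block and 1 of those 4 arrays left out it lay between 1 and 4, with 2 when WT 2 was dropped, 1 for WT 3, 4 for LIGHT Tg 2 and 2 for LIGHT Tg 3. Over all probe sets the count was 148 without the trend, 1992 with array weights, 1457 with the block, 956 in the arrays titled 30 to 35, and between 43 and 306 with 1 array left out. The type IV median was -0.039 with no filter, where 6 genes enter in place of 2, and the fibrillar median lay between -0.15 and 0.26 with 1 array left out. No called collagen difference changed sign under these settings. No paired analysis was possible because the labels give the groups no shared replicate numbers. Signals near the filter carry no detection call.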

Other observations

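The deposited signals hold fewer distinct values than probe sets, between 13694 and 13900 per array. On LIGHT Tg 3 no value has more than 1 decimal and the trimmed mean, leaving out the extremes at each end, is 500.0, while on the other arrays 36314 to 38226 values have more decimals and the trimmed mean lies between 490.0 and 505.1.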
